A study of Mus musculus with 146 samples.

Results

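Genes that the study drew as high midway in follicle formation were followed through single germ cells of the newborn mouse ovary. They were 9 of the 52605 gene symbols in the files: Sdc1, Cd55, Tspan13, Anxa7, Mboat2, Ddah1, Tsga8, Ccdc73 and Bzw2. They were chosen by name. The study's text names 4 of them (Sdc1, Cd55, Tspan13 and Anxa7), and its plots of these same cells draw all 9 as high midway, 7 along pseudotime and Ddah1 and Tsga8 on a map of cell clusters, so a high level in the middle of an order of these cells is how they were picked and not a result. RNA of single germ cells, picked by mouth pipette from digested C57/BL6J ovaries at P0.5, was sequenced by Smart-seq2, which copies whole polyadenylated transcripts without keeping their strand, and spike-in RNA was added to each lysate. The ovaries (n = 5) came from pups of 1 litter and were digested together, there was no treatment or second genotype, and libraries positive for the pregranulosa marker Foxl2 had been removed by the authors. The labels tie no cell to an animal, so all cells were treated as 1 sample, no test between cells was made, and each SD below is a spread between cells.

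The 146 libraries did not come from 146 independent cells. In 7 pairs, each made of a library numbered from 140 to 146 and one with a lower number, log2 CPM (reads scaled to the library total) correlated at r of 0.994 to 0.998, while the highest r of any other pair was 0.708 and the median was 0.418. The counts within these pairs differed by a chi-square of 1.91 to 5.17 per degree of freedom, where sampling noise alone gives 1, against 166 or more for every other pair. Each pair was therefore counted as 1 cell, with its TPM averaged and its reads added. For the 9 genes the median fold between repeat libraries was 1.02 to 1.13, the highest was 1.82 for Tspan13, and no gene moved across 1 TPM in any pair. The labels do not say at which step the repeats part, so these folds need not cover the error of capturing and amplifying the RNA of 1 cell. Cell 29 had no Ddx4 (0 TPM), the germ cell RNA helicase that should be present in all of them, and was left out. The cells described below are thus 8 fewer than the 146 libraries. In them, Ddx4 ranged from 7.49 to 542 TPM with a median of 185, and between 4837063 and 33117438 reads per cell lay on genes. All 7 germ cell markers listed (Ddx4, Dazl, Mael, Sycp3, Taf7l, Figla and Kit) were at 1 TPM or more in nearly all cells, from 95.7% of them (Kit) upward. Foxl2 itself was at 1 TPM or more in 4 cells, up to 15.002 TPM. The summed TPM of 10 pregranulosa markers had a median of 0.631 and a highest value of 82.1, that of 8 stroma markers 1.07 and 879, and that of 6 surface epithelium markers 1.10 and 373. Blood and endothelial markers reached 324516 TPM in 1 cell, from globin RNA, with a median of 49.1. Of these 32 markers of other cells, Nr5a1, Tcf21, Upk3b and Tyrobp did not reach 1 TPM in any cell, and the other 28 did in some. The globin genes Hba-a1 and Hba-a2 did in 100 cells each and Hbb-bs in 89. The epithelium marker Lgals7 did in 59 cells, up to 372 TPM, and Nr2f2 in 50. Col3a1, Col1a1, Kitl and Gata4 did in 7 to 13 cells, with highest values of 494, 216, 81.1 and 59.1 TPM. The rho of the 9 genes with these 4 sums lay between -0.16 and 0.29, the highest being Ddah1 with the epithelium sum, and the part of other cells' RNA in that value was not tested.

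In the newborn mouse ovary, germ cells that had stayed joined in cysts separate, and single oocytes are enclosed by pregranulosa cells to form primordial follicles. Meiotic genes such as Sycp2 and Hormad1 recede, oocyte transcription factors such as Nobox, Figla, Lhx8 and Sohlh1 act, and genes of the zona pellucida come on. The cell surface matters in this step because sister cells lose contact with each other and gain contact with somatic cells. The study named 4 of the 9 as genes of membrane proteins, and they are called surface genes here for short. Sdc1 encodes syndecan-1, a transmembrane heparan sulfate proteoglycan, and Cd55 encodes decay-accelerating factor, which protects cells from complement. Tspan13 encodes a tetraspanin, a protein with several membrane spans. Anxa7 encodes an annexin, which binds membrane phospholipids in the presence of calcium from within the cell. Of the others, Mboat2 encodes an acyltransferase that remodels membrane lipids, Ddah1 an enzyme that breaks down methylated arginines, Bzw2 a protein that competes in translation initiation, Ccdc73 a coiled-coil protein and Tsga8 an X-linked gene first known from testis.

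The DNA upstream of the surface genes is shown because these genes varied together, with a median rho of 0.4997 over their 6 pairs. The runs are from RefSeq (GRCm38.p6), read 5′ to 3′ on the gene's strand, within the 250 bases before the RefSeq start and without any base inside the GENCODE M21 gene. Capitals mark matches, on either strand, to 3 sets of letters: CANNTG (an E-box, the kind of site that Figla and Sohlh1 bind), TAATTG (a Nobox element) and TGATTG (an Lhx8 element).
Sdc1, chr12:8771146-8771322, plus strand: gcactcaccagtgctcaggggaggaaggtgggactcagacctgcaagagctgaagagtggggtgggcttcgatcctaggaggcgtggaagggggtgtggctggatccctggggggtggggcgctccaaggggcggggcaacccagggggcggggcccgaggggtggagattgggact
Cd55, chr1:130462745-130462994, minus strand: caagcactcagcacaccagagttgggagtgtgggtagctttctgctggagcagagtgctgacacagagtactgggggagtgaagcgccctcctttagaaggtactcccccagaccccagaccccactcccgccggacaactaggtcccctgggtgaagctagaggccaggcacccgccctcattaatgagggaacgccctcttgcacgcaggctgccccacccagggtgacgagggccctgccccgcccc
Tspan13, chr12:36042501-36042728, minus strand: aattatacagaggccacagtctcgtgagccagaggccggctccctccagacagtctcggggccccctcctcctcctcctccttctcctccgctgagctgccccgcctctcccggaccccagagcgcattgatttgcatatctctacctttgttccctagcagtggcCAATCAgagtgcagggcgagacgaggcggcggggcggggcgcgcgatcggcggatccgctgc
Anxa7, chr14:20480134-20480383, minus strand: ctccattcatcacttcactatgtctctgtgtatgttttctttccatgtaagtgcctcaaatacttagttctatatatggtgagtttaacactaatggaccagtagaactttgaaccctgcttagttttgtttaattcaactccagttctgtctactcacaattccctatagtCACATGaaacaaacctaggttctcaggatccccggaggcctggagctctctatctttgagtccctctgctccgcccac
In the full windows Sdc1 had 1 E-box, 34 bases before its start and inside the GENCODE gene, Anxa7 had 1 E-box (and 4 in the window of a second RefSeq start), Tspan13 had 1 Lhx8 element, printed as its reverse complement, and Cd55 had none of the 3. Across all 9 genes, 6 of the windows at the first start held an E-box, against 66.2% of 32851 windows of this length. Tspan13 and Mboat2 held the Lhx8 element, against 12.7% of windows, and no gene held the Nobox element, against 7.17%. No set of letters was thus shared by the surface genes, and a match or its absence says nothing about binding.

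Levels differed widely between the genes and between cells. Sdc1 (ENSMUSG00000020592.14, chr12:8771323-8793715 in GRCm38, plus strand) ranged from 0 to 774 TPM with a median of 41.5, and 76.1% of cells (exact 95% interval 68.1 to 82.9) held at least 1 TPM. Cd55 (ENSMUSG00000026399.12, chr1:130439027-130462744, minus strand) ranged from 0 to 496 TPM with a median of 112.2, and was at 1 TPM or more in 92.03% of cells (86.2 to 95.95). Tspan13 (ENSMUSG00000020577.17, chr12:36014557-36042500, minus strand) ranged from 0 to 1185 TPM with a median of 121.02 and was found in 92.8% (87.1 to 96.5). These 3 genes had their highest value in the same cell, cell 17. Anxa7 (ENSMUSG00000021814.17, chr14:20455260-20480133, minus strand) was the steadiest of the 9, with a coefficient of variation of 0.678 over cells, a median of 337 TPM, a highest value of 1103 TPM in cell 68 and 97.1% of cells (92.7 to 99.2) at 1 TPM or more. The intervals cover counting error only.

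The other 5 genes ranged from sparse to present in every cell. Mboat2 (ENSMUSG00000020646.17, chr12:24830879-24964397, plus strand) had a median of 19.2 TPM, a highest value of 459 and 66.7% of cells (58.1 to 74.5) at 1 TPM or more. Ddah1 (ENSMUSG00000028194.15, chr3:145758675-145894277, plus strand) had a median of 32.5, a highest value of 228 and 82.6% (75.2 to 88.5). Tsga8 (ENSMUSG00000035522.3, chrX:83486678-83487924, minus strand) was the most uneven, with a coefficient of variation of 1.78. It was listed at 0 in 31 cells, reached 2122 TPM in cell 37, had a median of 69.5 and was at 1 TPM or more in 62.3% of cells (53.7 to 70.4). Ccdc73 (ENSMUSG00000045106.12, chr2:104867805-105017904, plus strand) was above 1 TPM in every cell kept, from 8.25 to 4072 TPM with a median of 458. Bzw2 (ENSMUSG00000020547.5, chr12:36091835-36158080, minus strand) ranged from 0.121 to 1274 TPM with a median of 267, and 99.3% of cells held at least 1 TPM. By median TPM the order was Ccdc73, Anxa7, Bzw2, Tspan13, Cd55, Tsga8, Sdc1, Ddah1 and Mboat2, and the interquartile ranges of neighbours in it overlapped throughout. This order rests on the gene lengths behind TPM, since the deposited median length of Ccdc73 (197 bases), Bzw2 (281), Anxa7 (294), Cd55 (499) and Tspan13 (644) is below that of the shortest GENCODE M21 transcript of each (318, 371, 364, 721 and 693). By CPM, which uses no length, Anxa7 (median 687) and Bzw2 (646) stood above Ccdc73 (358). Within a gene, TPM and CPM ranked cells alike, with a rho of 0.891 to 0.998.

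To describe where along follicle assembly the genes were high, cells were sorted on principal component 1 of 20 feature genes, none of them one of the 9, turned so that the meiotic gene Sycp2 falls. The study's text names 19 of the 20, and Taf4b, which it drew with them, was taken as the last. Without Taf4b the order was nearly the same (rho 0.997), and only Tsga8 changed its highest bin, from 2 to 3. The component held 36.7% of the variance. Cells were cut into 5 bins of 27 or 28, in which mean TPM of Sycp2 went from 420 to 46.2 and that of Zp3, a zona pellucida gene, went from 0.121 to 628. In this order all 9 genes had their highest mean in bins 2 to 4, where 50.0% of 8796 coding genes had theirs. Of the 9, 6 were at least 1.5-fold higher over bins 2 to 4 than in bin 1 and in bin 5, against 5.23% of the coding genes. As the genes were chosen for this pattern, nothing is read from these counts. Tspan13 and Anxa7 missed it at the late end, with 1.29-fold and 1.17-fold over bin 5, and Bzw2 at the early end, with 1.31-fold over bin 1.

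**Figure D1:**
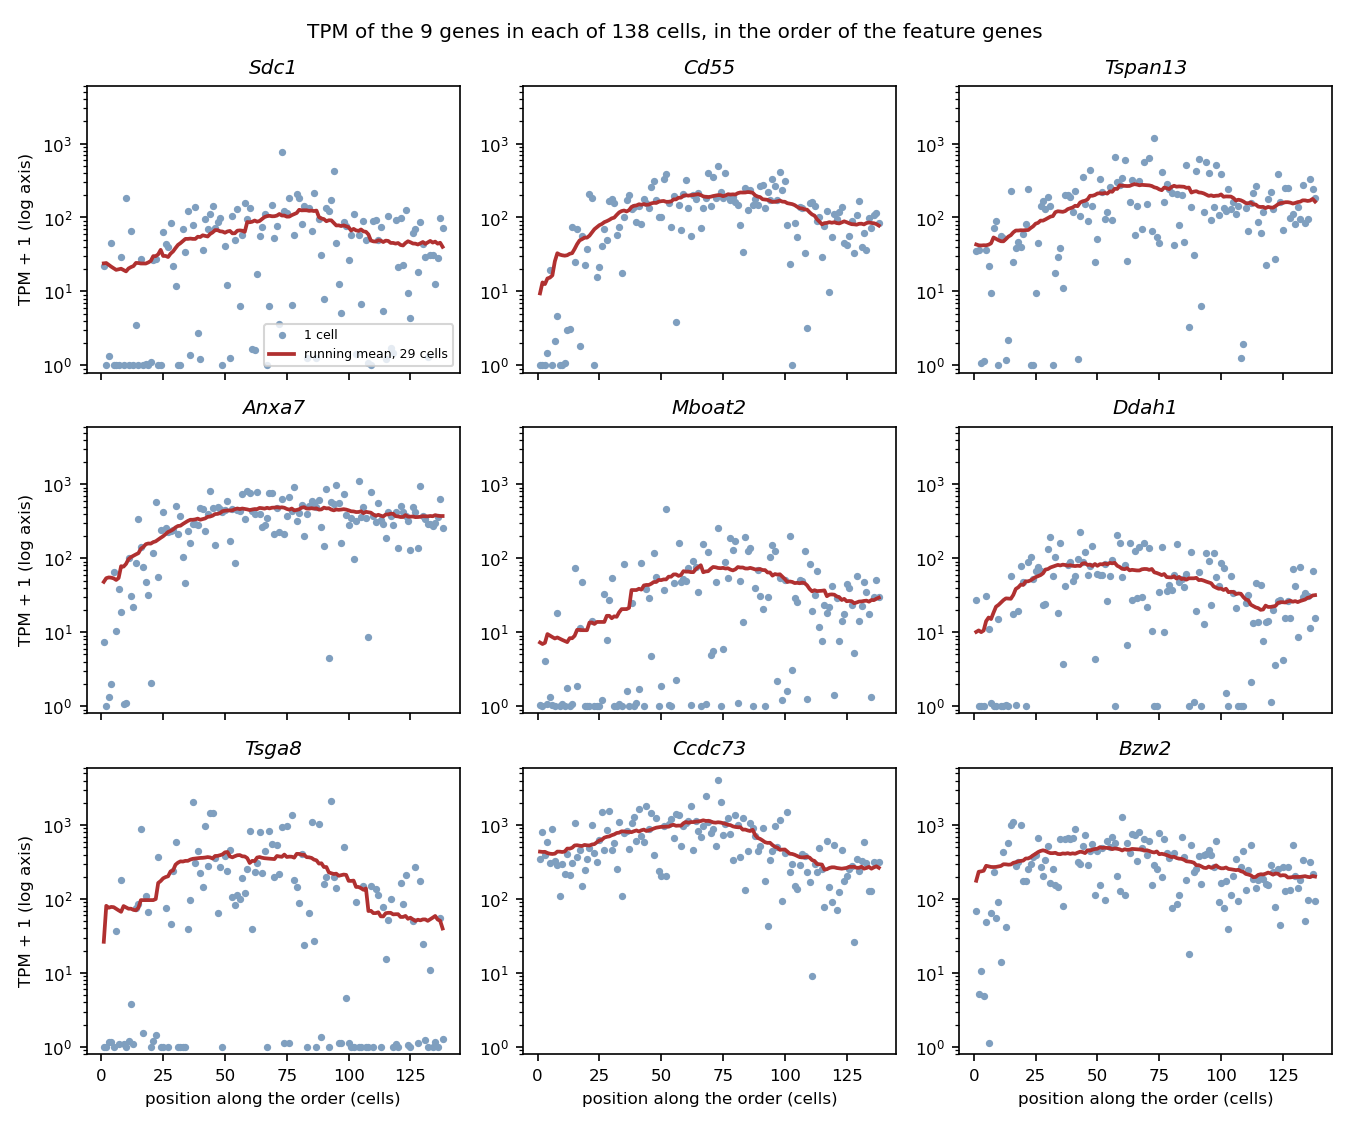
TPM + 1 (log axis) of the 9 genes in each cell (points) against the position of the cell along the order, with the running mean over 29 cells (line). Cells without Sdc1 or Mboat2 are crowded at the start, cells without Tsga8 lie early and late, and Anxa7 rises and then stays high.

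Mean TPM of Sdc1 was 23.3 ± 39.6 (SD, n = 28 cells) in bin 1, 54.2 ± 48.98 in bin 2, 106.5 ± 146 in bin 3, 76.1 ± 88.7 (n = 27) in bin 4 and 43.4 ± 38.5 in bin 5. In bins 3 and 4 the SD exceeded the mean, so single cells of neighbouring bins overlapped widely. Cell 17 alone took the mean of bin 3 from 81.7 to 106.5, and without it bin 3 was 3.51-fold bin 1 and 1.88-fold bin 5, instead of 4.57-fold and 2.45-fold. Cd55 went from 31.9 ± 52.2 TPM in bin 1 to 151 ± 87.7, 196 ± 110 and 166 ± 103.6 in bins 2 to 4 and 82.4 ± 39.4 in bin 5. It was at 1 TPM or more in 18 of 28 cells of bin 1 and in all 27 of bin 5, where its mean was lower than in bins 2 to 4. Tspan13 went from 54.1 ± 65.3 to 278 ± 257 TPM in bin 3 and was still at 160 ± 93.4 in bin 5. Anxa7 went from 111.8 ± 146 to 485 ± 215 in bin 3 and stood at 366 ± 171 in bin 5, so that bin 3 was 1.32-fold bin 5.

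Mboat2 went from 7.29 ± 16.7 TPM in bin 1 to 73.4 ± 71.9 in bin 3 (10.1-fold, or 9.16-fold without cell 17 and 15.02-fold without the highest cell of bin 1), and was at 25.5 ± 17.4 in bin 5. Mboat2 was at 1 TPM or more in 8 of 28 cells of bin 1, 23 of 28 of bin 3 and 25 of 27 of bin 5. The lower mean of bin 5 than of bin 3 thus did not come with fewer cells. Ddah1 had its highest mean in bin 2, with 80.3 ± 53.7 TPM, compared with 27.5 ± 32.6 in bin 1 and 24.2 ± 20.8 in bin 5, and all 28 cells of bin 2 held it. Tsga8 had means of 375 ± 513 in bin 2 and 355 ± 364 in bin 3, and 69.4 ± 180 and 51.9 ± 75.5 at the ends. Cell 88 alone, with 898 TPM, raised its bin 1 mean from 38.7, and without that cell the highest bin was 9.68-fold bin 1 instead of 5.40-fold. In bin 4 its mean was 223 but its median only 3.55, as 13 of the 27 cells lay below 1 TPM and 1 cell reached 2122. Ccdc73, which no cell lacked, went from 493 ± 322 to 1112 ± 774 in bin 3 and 272 ± 159 in bin 5. Bzw2 went from 291 ± 316 to 448 ± 286 in bin 3 and 208 ± 122.6 in bin 5, so that bin 3 was 1.54-fold bin 1.

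The highest points of the running means did not fall at 1 place. Counting cells from the early end, Tsga8 and Bzw2 were highest at position 51, Ddah1 at 57, Tspan13 at 65, Mboat2 at 66, Ccdc73 at 67, Sdc1 at 80, Anxa7 at 82 and Cd55 at 85. For 4 genes leaving out 1 cell could move the place by more than 5 cells. With 1 cell left out at a time, the place ranged from 51 to 79 for Tsga8 (79 without cell 71, which had 2066 TPM), from 59 to 81 for Tspan13 (81 without cell 28, at 658 TPM), from 71 to 89 for Anxa7 (71 without cell 3, at 617 TPM) and from 44 to 57 for Ddah1. Those of the other 5 genes moved by at most 5 cells. Sdc1 (79 to 83) and Cd55 (82 to 85) lay later than Bzw2 (51 to 53), Mboat2 (65 to 71) and Ccdc73 (67 to 69) in each such case, in this order of cells. Both other orders tried moved single genes by at most 1 bin. Diffusion pseudotime was built from the same feature genes as the first order, so its closeness to that order was largely set in advance. It is therefore no separate check of these places, and only the order of variable genes rests on another set of genes. With the first component of the 2000 most variable genes (rho with the first order 0.779), Bzw2 was highest in bin 2, as it also was with diffusion pseudotime (rho 0.984), where Sdc1, Tspan13, Anxa7 and Mboat2 were highest in bin 4. The sequence was kept in part, and running means were not taken in these orders. Sdc1 and Cd55 were in a later bin than Bzw2 in both, but by diffusion pseudotime Mboat2, in bin 4, was later than Cd55, in bin 3, and by variable genes Sdc1, Cd55, Mboat2 and Ccdc73 all fell in bin 3.

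The scale on which RNA is counted changed the picture at the late end. TPM is a share of the RNA in a library, and the summed spike-in TPM, which falls as a cell gives more RNA, had medians of 11147, 13886, 11708 and 11140 in bins 1 to 4 and of 6196 in bin 5. Over 7449 coding genes with a mean of at least 10 TPM the median log2 ratio of bin 5 to bin 1 was -0.32 in TPM and 0.48 per spike-in. Per spike-in, 7 of the 9 genes were still highest in bins 2 to 4, while Tspan13 and Anxa7 were highest in bin 5. Only Tsga8 was then at least 1.5-fold over both ends (4.11-fold over bin 1 and 3.34-fold over bin 5), against 0.904% of the coding genes. On that scale, given as TPM scaled to the mean spike-in level over cells, Sdc1 went from 24.97 in bin 1 to 130.6 in bin 4 and 104.7 in bin 5, Cd55 from 41.8 to 252 and 173, and Mboat2 from 8.51 to 79.5 and 58.1. The increase from the first bin was thus kept while the late decrease was smaller than in TPM. In CPM all 9 were highest in bins 2 to 4.

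**Figure D2:**
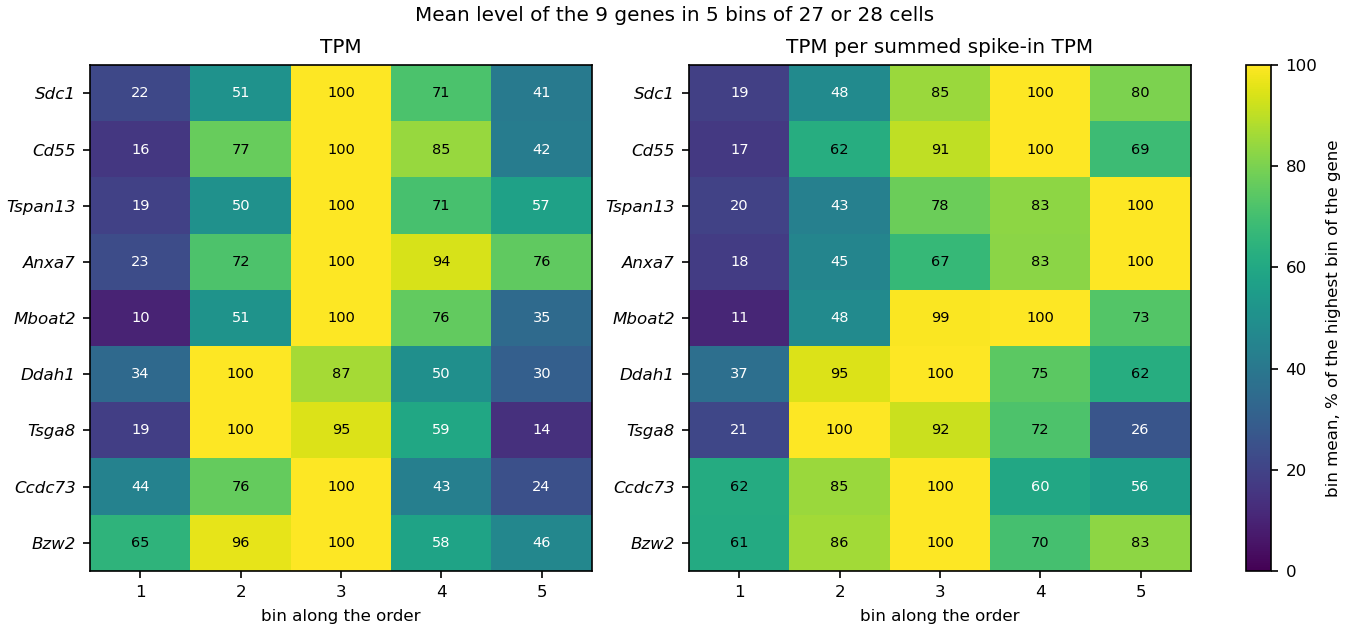
Mean level of each gene in 5 bins along the order, as % of the gene's highest bin, in TPM (left) and in TPM divided by the summed spike-in TPM of the cell (right). In TPM every gene is highest in bin 2 or 3, while per spike-in Sdc1, Cd55 and Mboat2 move to bin 4 and Tspan13 and Anxa7 to bin 5.

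Whether the genes were high in the same cells was then asked pair by pair. Over all cells the 36 pairs had a median Spearman rho of 0.356, from 0.0739 for Mboat2 and Ccdc73 to 0.605 for Tsga8 and Bzw2. The median of all 27740076 pairs among 7449 coding genes was 0.0464, and 1.08% of those pairs were at 0.356 or above. A shared rise and fall along the order gives genes a positive rho, so the running mean of ranks along the order was taken off. The median rho of the 36 pairs was then 0.236, against 0.0485 for all pairs, of which 4.60% were as high. In CPM this median was 0.150 against 0.0332. Cells of 1 sample share depth and composition, so rho is given as a description, without a p-value.

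The 6 pairs among Sdc1, Cd55, Tspan13 and Anxa7 had a median rho of 0.4997 (0.401 to 0.569) and a residual rho of 0.281 (0.190 to 0.418). Of these residuals 5 were above the median of 0.236, as were 13 of the other 30 pairs, and Anxa7 and Tsga8 (0.345) and Cd55 and Tsga8 (0.333) were each above at least 4 of the 6 surface pairs. Tspan13 had the highest mean residual rho with the other 8 genes (0.299), and its residual rho was 0.418 with Cd55, 0.339 with Anxa7 and 0.449 with Mboat2. Sdc1 had the lowest mean of the 4 (0.190), with residual rho of 0.250 with Cd55, 0.264 with Tspan13 and 0.190 with Anxa7. Tsga8 and Bzw2 had the highest residual rho of the 36 pairs, at 0.527. Bzw2 shares sequence with Ppp2r5a, and Ppp2r5a, outside the 9, was also the gene nearest to Tsga8 (rho 0.538, residual 0.470). The part of shared sequence in the value of Tsga8 and Bzw2 was not tested, so that value is given with caution. Ccdc73 stood apart, with a mean residual rho of 0.113 with the other 8 and values of 0.0232 with Sdc1 and 0.0354 with Mboat2. Tspan13 and Bzw2 are next to each other on chromosome 12, their start sites 115580 bases apart with no coding gene between them. Their rho was 0.247. Of 5133 pairs of adjacent coding genes, with a median rho of 0.0624, 8.40% were as high. The 14 highest cells of Tspan13 and of Bzw2 had none in common, as was also so for Ddah1 with Tsga8 and with Ccdc73. How many such cells unrelated genes would share was not computed.

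**Figure D3:**
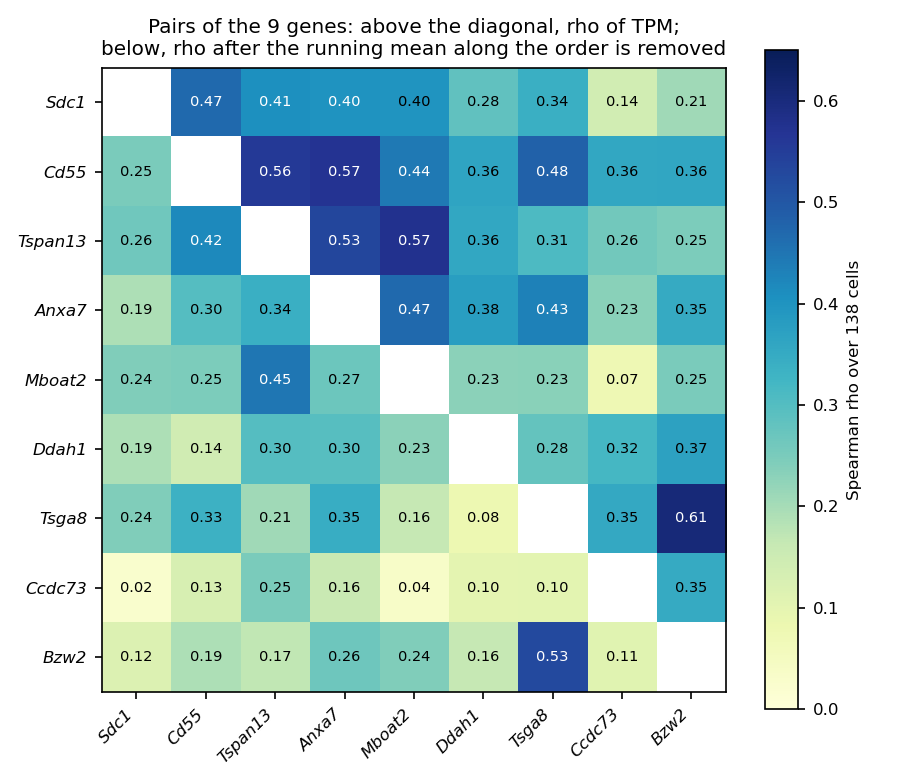
Spearman rho over cells for each pair of the 9 genes, before (above the diagonal) and after (below it) the running mean along the order was removed. Below the diagonal the pairs of Tsga8 and Bzw2 (0.527), Tspan13 and Mboat2 (0.449) and Cd55 and Tspan13 (0.418) are highest.

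The cells with the highest values overlapped in part. For each gene the 14 highest cells were taken. Of all cells, 65 were among the highest for at least 1 gene, 36 for at least 2 and 15 for at least 3 (10.9%, exact 95% interval 6.21 to 17.3), and none for more than 6. As exactly 14 cells were taken for each gene, cells do not enter independently, and the interval does not measure the uncertainty of this count. How many cells unrelated genes would share among their 14 highest was not computed. Of the 15 cells, 9 lay in bin 3, 4 in bin 4, 2 in bin 2 and none in bins 1 and 5, and by the order of variable genes 4, 4, 6, 0 and 1 lay in bins 1 to 5. Cd55 and Tspan13 shared 9 of their 14 cells, Sdc1 and Tspan13 6, and Ddah1 shared none with Tsga8 or Ccdc73. Without the number for unrelated genes, nothing is read from these counts. Cell 17 was among the highest for 6 genes, with 774 TPM of Sdc1, 496 of Cd55, 1185 of Tspan13, 254 of Mboat2, 934 of Tsga8 and 4072 of Ccdc73, yet it had no Ddah1. That library also had few genes (6499 with a read, against a median of 12625) and the lowest share of mitochondrial reads, 0.212%. Cell 11 followed with 5 genes: 147 TPM of Sdc1, 404 of Cd55, 554 of Tspan13, 761 of Anxa7 and 158 of Ddah1, over 9865 genes with a read. The 15 cells had a median of 11343 genes with a read and 4.01% mitochondrial reads, against 12670 and 6.84% in the other cells. They also had more Ddx4 (median 272 against 175 TPM) and a higher sum of the 7 germ cell markers (8176 against 5868 TPM), and the part of these measures in the overlap was not tested.

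**Figure D4:**
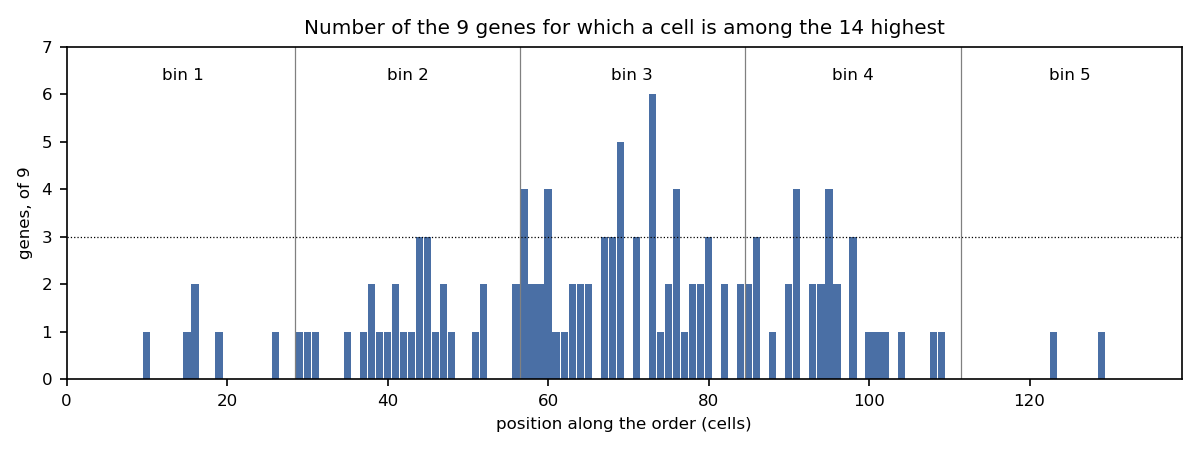
Number of the 9 genes for which each cell is among the 14 highest, by position along the order; grey lines part the bins and the dotted line marks 3 genes. The 15 cells at 3 or more genes lie in bins 2 to 4, and cell 17 is highest with 6.

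As markers, the 4 surface genes were met together in most cells. Singly, 3 of them were in nearly all cells at 1 TPM or more: Cd55 in 92.03%, Tspan13 in 92.8% and Anxa7 in 97.1%. Sdc1 was in 76.1%. How often the 4 would meet without any link between them was not computed. At 1 TPM or more, all 4 were found in 73.2% of cells (exact 95% interval 64.99 to 80.4), 3 of them in 22 cells, 2 in 10, 1 in 4 and none in 1. They were together in 10 of 28 cells of bin 1, 21 of 28 of bin 2, 24 of 28 of bin 3, 23 of 27 of bin 4 and 23 of 27 of bin 5. Bin 5, where the mean TPM of Sdc1 and Cd55 was lower, thus held them together as often as bin 4. Cd55 without Sdc1 occurred in 25 cells and Sdc1 without Cd55 in 3. Kit, a receptor gene of oocytes, was at 1 TPM or more in 95.7% of cells, among them every cell with the 4 surface genes and 29 cells without Sdc1. In cell 29, the library without Ddx4, Sdc1 and Anxa7 were listed at 0, Cd55 had 0.819 TPM and Tspan13 had 5.06 TPM. That library had fewer reads on genes (1408459) than any cell kept. All 9 genes were found together in 53 cells and fewer than 5 of them in 7.

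**Figure D5:**
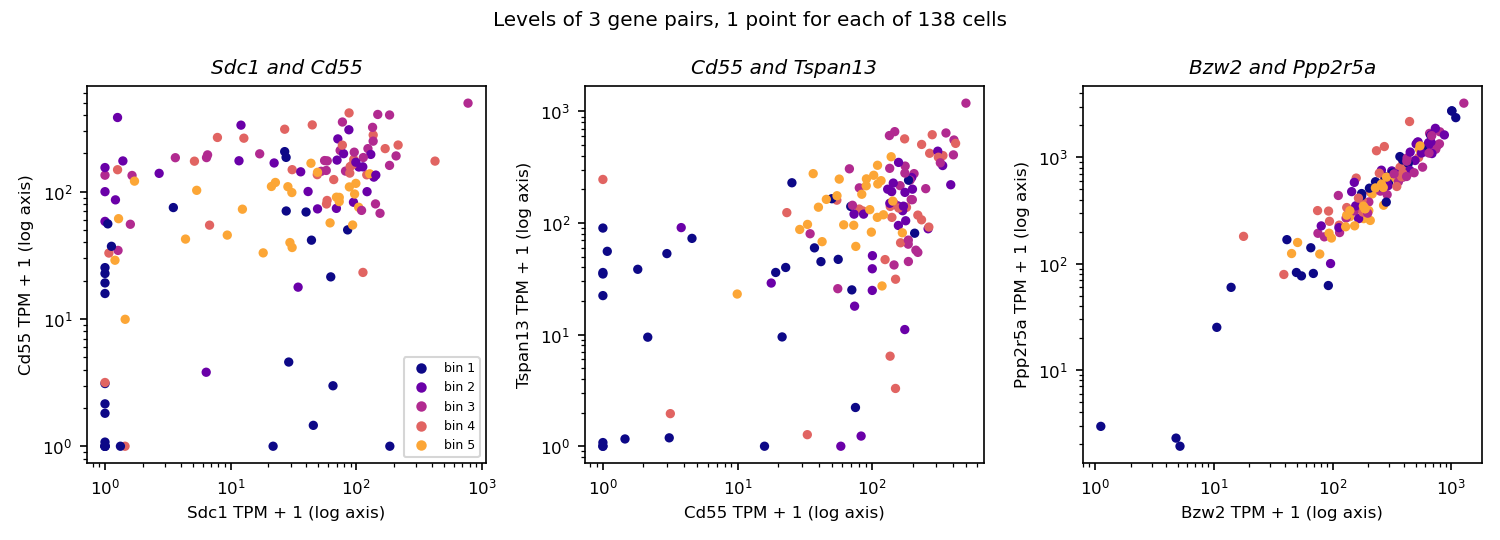
TPM + 1 (log axes) of Sdc1 and Cd55, Cd55 and Tspan13, and Bzw2 and Ppp2r5a, with 1 point for each cell coloured by bin. Cells with Cd55 and without Sdc1 stack at the left of the first panel, and Bzw2 and Ppp2r5a lie close to 1 line.

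Of the stage genes, the transcription factor genes Lhx8, Nobox, Figla and Sohlh1 had the highest mean rho with the 9 (0.528, 0.457, 0.389 and 0.370), followed by Kit (0.324). With the running mean along the order removed, the means were 0.356 for Lhx8, 0.301 for Nobox and 0.248 for Kit, and those of Taf7l (0.195) and Taf4b (0.181) were above those of Sohlh1 (0.178) and Figla (0.173). Lhx8 had a rho of 0.652 with Ddah1, 0.619 with Cd55 and 0.576 with Anxa7, and Nobox had 0.623 with Anxa7 and 0.499 with Sdc1. Kit and these 4 factors are feature genes and so helped to build the order. The study also listed the 4 factors, with the surface genes, in pseudotime clusters of these same cells that have a wave-like trend. Nothing is therefore read from their high rank among the stage genes. With the running mean removed Lhx8 had 0.540 with Ddah1 and 0.479 with Tspan13. Kit had a rho of 0.497 with Cd55 and 0.443 with Tspan13, or 0.390 and 0.339 with the running mean removed. Sohlh1 and Figla gave 0.230 to 0.512 with the 9, but with the running mean removed Sohlh1 had -0.0059 with Cd55 (0.394 before), and Figla had -0.017 with Cd55 (0.407 before) and -0.031 with Sdc1 (0.230 before). Against 11 oocyte genes (Ooep, Zar1, Ybx2, Pou5f1, Nlrp14, Nlrp5, H1foo, Gdf9 and the zona genes Zp3, Zp2 and Zp1), also feature genes, the 9 differed. The rho was positive with all 11 for Tspan13 (0.058 to 0.262), Anxa7 (0.108 to 0.350) and Mboat2 (0.065 to 0.291), with 10 for Sdc1, 5 for Cd55, 1 each for Tsga8 and Bzw2, and 0 for Ddah1 (-0.22 to -0.0093) and Ccdc73 (-0.44 to -0.0079). The lowest values of Ccdc73 were those with Pou5f1, a pluripotency gene that oocytes also express (-0.44, or -0.20 with the running mean removed), and with Gdf9, the oocyte growth factor (-0.42, or -0.078). Ybx2, which encodes a germ cell RNA-binding protein, had the lowest mean of all stage genes once the running mean was removed, at -0.29, compared with -0.015 before. Its residual rho was -0.47 with Tspan13, -0.42 with Sdc1 and -0.38 with Cd55, and 0.0073 with Ccdc73. Golga2, whose protein GM130 marks the Golgi of the Balbiani body, had a rho of 0.0370 with Sdc1 and 0.0554 with Cd55, or 0.174 and 0.272 with the running mean removed, and its own mean TPM went from 28.4 in bin 1 to 6.83 in bin 5. By staining, the study reported SDC1 and CD55 protein together with GM130 in germ cells. RNA of Golga2 does not measure the amount or place of that protein, so these values do not bear on the staining. Prdx6, a peroxiredoxin gene, gave 0.167 (Tsga8) to 0.491 (Tspan13) with the 9, and -0.027 (Tsga8) to 0.388 (Tspan13) with the running mean removed.

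Among all coding genes outside the 9 and the feature genes, Sumo3, which encodes a ubiquitin-like modifier, was most like the 9, with a mean rho of 0.508 and a residual mean of 0.416. It was followed by Akr1b3 (aldose reductase, 0.454), Ninj1 (a cell surface protein, 0.441), Gdpd1 (a phosphodiesterase gene, 0.420), Acat1 (a mitochondrial acetyltransferase, 0.405), Ypel5 (0.387), Wdr36 (0.378), Vil1 (the actin-binding villin, 0.373), Mbl2 (a mannose-binding lectin, 0.371) and Ppp2r5a (a subunit of protein phosphatase 2A, 0.370). Of these 10 genes, 8 had their highest mean in bin 3. They were taken for likeness to genes picked for a high middle, so nothing is read from that count. The place of Ppp2r5a rests on Bzw2, with which it shares sequence: over the 8 genes without Bzw2 its mean rho was 0.298, at rank 62. Wdr36 was then at rank 11, and the other 8 were within the first 10. For single surface genes, Ninj1, Gdpd1 and Acat1 were nearest to Sdc1 (0.584, 0.545 and 0.537), Sumo3, Gdpd1 and Kdm1b, a histone demethylase gene, to Cd55 (0.578, 0.574 and 0.564), Gdpd1, Sumo3 and Ninj1 to Tspan13 (0.647, 0.635 and 0.620), and Kdm1b, Gdpd1 and Acat1 to Anxa7 (0.599, 0.590 and 0.578). Gdpd1 was thus among the 3 nearest genes of each surface gene.

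The value of Bzw2 is uncertain. Its rho with Ppp2r5a was 0.949 (0.942 after the order was removed), a value that 2 of 27740076 gene pairs reached, this pair included. The 2 genes lie on different chromosomes, but transcript Bzw2-205 of GENCODE M21, a retained-intron form with 11 exons, has 989 of its 2533 bases in stretches of at least 31 bases that Ppp2r5a-206 holds on the opposite strand. The longest identical run, 185 bases, lies in its last exon, of 1319 bases (chr12:36099425-36100743). It is printed in capitals with 10 bases on each side, since reads from it cannot be told apart by sequence when strand is not kept.
Bzw2-205, chr12:36100092-36100296, minus strand: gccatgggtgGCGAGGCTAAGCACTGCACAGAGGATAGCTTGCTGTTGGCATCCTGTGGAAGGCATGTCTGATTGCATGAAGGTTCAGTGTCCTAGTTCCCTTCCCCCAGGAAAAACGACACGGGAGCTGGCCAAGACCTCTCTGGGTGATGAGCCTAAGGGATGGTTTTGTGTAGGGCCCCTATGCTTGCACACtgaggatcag
In all, 76 other genes held at least one 31-base word of Bzw2, among them Aen, an exonuclease gene that shares 49 words and had a rho of 0.660 with Bzw2. Xdh shares 174 words, more than Aen, and had a rho of 0.0419. The deposited length of Bzw2 was 224 to 282 bases over cells, far below the 2533 bases of Bzw2-205. Whether that transcript was in the reference used for the counts is not known. How the reads were divided was not tested. Cd55 held words of more genes than Bzw2 did, 159 in all and 42 with a mean of at least 10 TPM, against 76 and 11. It shares 531 of its words (11.2%) with its neighbour and paralog Cd55b, with which its rho was 0.492, and 73 with Gm16083, the next most. Ccdc73 shares 52 with Eif3m, which overlaps it on the opposite strand for 1.88% of its exon bases and had a rho of -0.25. Ddah1 and Tsga8 share no word with any other gene.

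Of the listed relatives of the 9 genes, 19 had a mean of at least 10 TPM. Among them 6 (31.6%) were highest in bins 2 to 4, against 50.0% of coding genes, and 2 (10.5%), Cd55b and Tspan3, were past 1.5-fold over both ends, against 5.23%. The filters differ, since the coding genes needed 10 TPM in any bin and the relatives a mean of 10 TPM over all cells. Sdc3, at 13.7 TPM in bin 2, was therefore not among the 19. Of 4 syndecans only Sdc1 had a mean of at least 10 TPM (60.7), ahead of Sdc3 with 7.37. Sdc3 was also highest in the middle, with 5.79, 13.7, 13.3, 1.25 and 2.44 TPM in bins 1 to 5. Of 12 annexins only Anxa7 had a mean of at least 10 TPM, with 353 against 7.47 for Anxa11. Of the 2 Ddah genes only Ddah1 had, with 48.6 against 0.562 for Ddah2. Among the complement regulators, Cd55b had means of 4.31, 19.4, 31.8, 15.1 and 11.1 TPM in bins 1 to 5, near to the pattern of Cd55 with which it shares sequence, while Cr1l peaked late, at 47.1 in bin 5. Of 11 other tetraspanins with a mean of at least 10 TPM, 4 were highest in bins 2 to 4, 4 in bin 5 and 3 in bin 1. Cd9, the tetraspanin that eggs need for fusion with sperm, went from 100.1 TPM in bin 1 to 373 in bin 5, Cd63 from 101.3 down to 9.16 and Cd81 from 54.9 down to 13.9. Tspan3 was the only one of them past 1.5-fold over both ends, with 91.4, 114.7, 197, 141.1 and 93.6. None of the 5 other Mboat family genes at that level was. Bzw1, at a mean of 317 TPM, went from 355 in bin 1 to 248 in bin 5 and was found in every cell. Per spike-in, neither Cd55b nor Tspan3 was past 1.5-fold over both ends.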

How the data were processed

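Each library is 1 germ cell of P0.5 ovary sequenced by Smart-seq2 with spike-ins. The authors ran Salmon, correcting for sequence bias, on an mm10 reference that also held the spike-ins (annotation release not given in the sources used here). For every gene symbol TPM and an estimated count were deposited. Estimated counts as deposited were not normalized and need not be whole. TPM of a cell is a share of its library and depends on the gene length used.

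From TPM, levels, shares with exact intervals (95%), bins, Spearman's rho and ranks were computed in Python 3.11.15 with NumPy 2.4.6, pandas 2.3.3, SciPy 1.17.1 and scanpy 1.11.5. Coding genes were those of GENCODE M21 or RefSeq, and 31-base words were compared over M21 transcripts. Near-identical libraries were those with r of at least 0.9. The calculations were tested on simulated data.

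The 9 genes, the gene lists and the tests were chosen with earlier results of these data known. Genes named are the 9, the feature and stage genes, the family lists, the 10 coding genes of at least 10 mean TPM most like the 9, and the 3 most like each surface gene, and the cell type markers. Genes that share sequence, and single cells, were named after their values were seen. Alternatives were other Ddx4 limits, CPM, spike-in scaling, other detection limits, thinned reads, other measures of rho, windows, orders and bins, and each cell left out. Those added after the data were seen are every library counted, 8 genes without Bzw2, cells without other cells' markers, without cell 17 or Taf4b, each cell left out for the running means, and the genes most alike without Bzw2. Replicates of animals were not available in the labels, so no test was made.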

Additional observations from a re-analysis of the deposited data

Results flagged for a closer look

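Cell 29, the library left out because it had no Ddx4, held RNA of 3 of the 9 genes above the 3 reads that a count of 0 allows: 0.819 TPM of Cd55 (3.07 estimated reads), 5.06 TPM of Tspan13 (13.6 reads) and 78.2 TPM of Bzw2 (271 reads). Sdc1, Anxa7, Ddah1 and Tsga8 were listed at 0 there, and Mboat2 and Ccdc73 had 1 read each. It is a single library with no Ddx4, so no comparison was made.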

How the results depend on the processing

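No paired analysis was possible because the libraries form 1 group and share no replicate numbers. Depth, with 4837063 reads or more per cell, limits only values near 1 TPM. Of 86 values recomputed for the results that answer a question, 77 stayed within 1.5 times, within the interval of the share or within 1 SD over the 36 pairs (0.123, residual 0.111), and no rho changed sign. The SD over pairs is a wide limit, not the error of their median. The median residual rho of 0.150 in CPM, against 0.236 in TPM, stayed within it. The 9 others were as follows. Per spike-in the median rho was 0.482 and the residual 0.466, while the median of all pairs was then 0.248 and 0.228; no relative of the 9 genes was past 1.5-fold over both ends (0), and 0.904% of coding genes were. That percentage was 2.56 in the order of variable genes, with 4 of the 9 past 1.5-fold, and 23.5 without a filter on low genes. All 4 surface genes were found in 83.3% of cells at 0.1 TPM and in 61.6% at 10 TPM. With the highest 20% of cells taken instead of the highest 10%, 47 cells were high for at least 3 genes, instead of 15. Leaving out each cell in turn gave 14 to 16 such cells, 72.99% to 73.7% of cells with all 4 surface genes, a median rho of 0.347 to 0.367, a residual of 0.206 to 0.242, and 9 to 9 genes highest in bins 2 to 4. Counting every library gave 0.359, 0.241, 15 cells and 73.8%; leaving out Bzw2 gave 0.360, 0.242 and 13 cells. Without 32 cells that held at least 10 TPM of summed pregranulosa, stroma and epithelium markers (Nr2f2 and Lgals7 not counted) these were 0.325, 0.203, 10 cells and 71.7%, and without 28 cells with at least 1000 TPM of summed blood and endothelial markers 0.340, 0.236, 13 cells and 70.9%. The causes of these shifts were not tested.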
